A study of Mus musculus with 24 samples.

Results

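Intraflagellar transport (IFT) carries cargo along the microtubules of a cilium, and the BBSome is the coat that rides on it and carries membrane proteins. The genes described here are the protein-coding genes of the count table whose symbol begins with Ift, Bbs or Dync2 and a subunit name, the kinesin genes Kif3a, Kif3b, Kif3c and Kif17, and Arl13b, Traf3ip1, Ttc21b, Wdr19, Wdr35, Cluap1 and Arl6. They were 35 of the 49671 genes counted, and all 35 passed the filter on low counts. RNA-seq of mouse cells gave 24 libraries in 6 groups of 4. NSCs were neural stem cells of a single embryonic stem cell line from C57BL/6N mice, kept in EGF and FGF. AGES were astrocytes made from those NSCs with BMP4, so all replicates of NSCs and AGES were passages of 1 line. Neonatal astrocytes (neoAC) were isolated with ACSA-2 microbeads from C57BL/6J pups in about the first week of life. Adult astrocytes (AdAC) were isolated in the same way from adult C57BL/6J animals, after another dissociation with removal of debris and red blood cells. Each isolation pooled mice, and females and males were mixed. Cells were snap-frozen (direct) or kept in astrocyte medium for a week or more (CellC). For directly isolated adult cells the olfactory bulb and the cerebellum had been removed, a step not stated for the adult cells that were cultured. Neonatal cells came from cerebral tissue without the meninges.

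As background, most astrocytes and neural stem cells carry a single primary cilium, which is assembled in cells that have left the cell cycle and resorbed before division, and which serves as the site of Hedgehog signalling. Kinesin-2 motors move IFT trains to the tip, loaded on the IFT-B complex, and the dynein-2 motor returns them with the IFT-A complex, which also brings membrane proteins into the cilium. The BBSome, recruited by the GTPase Arl6 and assembled with the help of chaperonin-like BBS proteins, exports receptors. The same machinery builds the motile cilia of ependymal cells, so a library with such cells holds its transcripts too.

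Library totals lay between 27904126 and 37997368 counts. Levels are CPM, counts relative to the TMM-scaled library total, listed in the order of replicates 1 to 4 or as mean ± SD (n = 4), and differences are log2 fold changes from edgeR's two-sided quasi-likelihood test, with p adjusted over the 19691 genes tested and called under 0.05. The members had between 7 and 5867 counts in a library. The summed level of 9 astrocyte markers was 55110 to 60030 CPM in AGES, 21190 to 24180 in neoAC direct, 16000 to 16720 in AdAC direct, 7405 to 8607 in neoAC CellC, 1942 to 2470 in NSCs and 918 to 1411 in AdAC CellC, so the libraries labelled as cultured adult astrocytes had the lowest sum of all groups. Most of the AGES sum was Gfap, with a mean of 50503 CPM against 57076 CPM for all 9 markers. Against neoAC CellC, 3 of the 9 markers were called higher in AGES and 4 lower. The shares over all genes tested were 34.1% and 40.5%. In AdAC CellC the 8 oligodendrocyte markers summed to 4380 to 11190 CPM, against 26880 to 29750 in AdAC direct and at most 398 in the other groups. The 12 ependymal or multiciliated markers summed to 1947 to 2488 CPM in neoAC CellC, 1629 to 1801 in AdAC direct, 299 to 438 in AdAC CellC, 189 to 313 in neoAC direct, 55.3 to 80.9 in AGES and 21.1 to 33.9 in NSCs. Among these, Deup1, Mcidas and Pifo, markers of multiciliated cells, had no count in at least 1 AGES library. In bulk RNA, fewer cells of a type and less RNA per cell cannot be told apart.

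The 35 genes together were highest in neoAC CellC and AdAC direct and lowest in NSCs. Their summed level was 2088 ± 91.6 CPM in neoAC CellC, 1983 ± 70.6 in AdAC direct, 1358 ± 52.8 in AGES, 1232 ± 52.3 in AdAC CellC, 1228 ± 63.9 in neoAC direct and 906 ± 23.4 in NSCs. The libraries of neoAC CellC (1995 to 2174 CPM) overlapped those of AdAC direct (1916 to 2045), and AdAC CellC overlapped neoAC direct, whereas every AGES library lay above every library of NSCs. Of the 35 members, 16 had their highest mean in neoAC CellC and 13 in AdAC direct, and 19 had their lowest in NSCs and 7 in neoAC direct. The spread between groups differed widely among the members. Kif17, a kinesin-2 motor that acts with the other motors in some sensory cilia, had a highest group mean 29.8 times its lowest. For Bbs1, Wdr19, Ift88 and Bbs2 the ratio of the means was 10.7, 9.52, 8.54 and 8.02, and Ift27 had the lowest ratio, 1.74. Per kilobase of exon, the scale on which genes can be compared, Ift20, a small IFT-B subunit also found at the Golgi, had the highest level of the members in NSCs (23.96 CPM per kb), AGES (38.2) and both cultures, and Kif3a, the shared subunit of the heterotrimeric kinesin-2, in both direct groups. Kif17 was the lowest member per kilobase in every group but AdAC direct, with 0.084 CPM per kb in AGES.

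**Figure D1:**
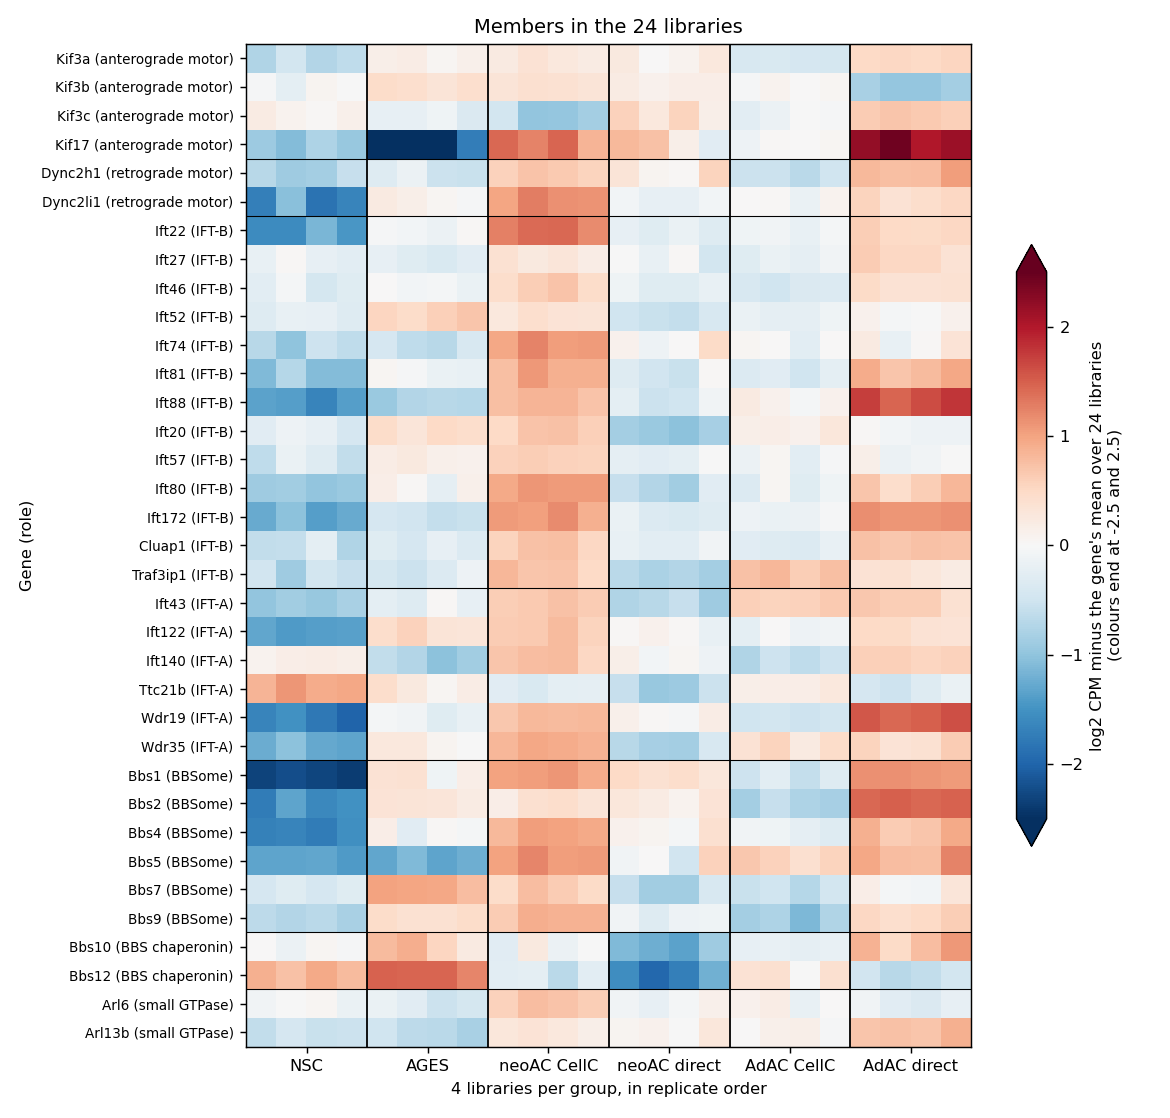
Level of each of the 35 members (rows, with their role) in the 24 libraries (columns), as log2 CPM minus the gene's own mean over all libraries, with colours ending at −2.5 and 2.5. Most rows are blue in NSCs and red in neoAC CellC and AdAC direct, and Kif3b, Kif3c, Ttc21b and Bbs12 follow other patterns.

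Most of the machinery was lower in cultured than in directly isolated adult astrocytes. Of the 35 members, 25 were lower and 6 higher in AdAC CellC than in AdAC direct, where 39.2% of all genes tested were lower and 38.8% higher, and the members' median log2 fold change was −0.70 against 0 for all genes. Among the motors, 3 of 4 kinesin-2 subunits and both dynein-2 genes fell. Kif17 (chr4:138250435-138301967 on the forward strand of GRCm38) had 11.4, 13.6, 10.1 and 11.001 CPM in AdAC direct and 2.30, 2.57, 2.52 and 2.61 CPM in AdAC CellC. The groups did not overlap, and every directly isolated library was higher (log2 fold change −2.20 with standard error 0.23, edgeR adjusted p = 2.35e-09). Kif3a had 115, 117, 116 and 119.9 CPM in AdAC direct and 62.1, 63.02, 61.4 and 60.8 CPM in AdAC CellC, with every cultured library below every direct one (log2 fold change −0.92 with standard error 0.07, edgeR adjusted p = 5.45e-12). Dync2h1, the heavy chain of dynein-2, had 93.2, 89.7, 90.6 and 109.7 CPM in AdAC direct and 36.8, 36.6, 33.2 and 37.6 CPM in AdAC CellC, again without overlap (log2 fold change −1.41 with standard error 0.11, edgeR adjusted p = 9.82e-12). Kif3b, which pairs with Kif3a, went the other way, with 40.9, 37.01, 37.03 and 40.3 CPM in AdAC direct and 70.5, 76.3, 72.5 and 74.3 CPM in AdAC CellC. All cultured libraries were above all direct ones (log2 fold change 0.92 with standard error 0.06, edgeR adjusted p = 2e-12), the highest log2 fold change of any member here.

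In the IFT-B complex 9 of 13 genes fell and Ift20 and Traf3ip1 rose. Ift88 (chr14:57424062-57517936), a core subunit whose loss is widely used to remove cilia, had 54.6, 45.1, 50.99 and 56.9 CPM in AdAC direct and 19.1, 17.5, 15.9 and 17.6 CPM in AdAC CellC. No cultured library came near a direct one (log2 fold change −1.56 with standard error 0.10, edgeR adjusted p = 3.08e-13). Ift74 (log2 fold change −0.16) and Ift57 (−0.07) did not pass the test, with adjusted p of 0.262 and 0.489 by edgeR. In IFT-A, Wdr19, Ift140 and Ift122, which form the core of the complex, fell. Wdr19 (chr5:65199696-65260415) had 98.04, 89.7, 93.4 and 101 CPM in AdAC direct and 23.7, 24.3, 23.3 and 24.1 CPM in AdAC CellC, so that the direct libraries were all far higher (log2 fold change −2.003 with standard error 0.09, edgeR adjusted p = 1.03e-16). Ift140 had 102, 102, 99.3 and 101 CPM in AdAC direct and 40.2, 47.7, 44.1 and 47.8 CPM in AdAC CellC, also without overlap (log2 fold change −1.17 with standard error 0.08, edgeR adjusted p = 1.97e-12). Of the remaining, peripheral IFT-A genes, Ttc21b rose, from 14.2 ± 1.54 to 20.5 ± 0.703 CPM (log2 fold change 0.53 with standard error 0.10, edgeR adjusted p = 4.7e-05), and Ift43 and Wdr35 did not pass.

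All 6 BBSome genes fell. Bbs2 (chr8:94067954-94098928) had 73.2, 76.9, 74.1 and 75.9 CPM in AdAC direct and 15.1, 18.3, 15.9 and 15.3 CPM in AdAC CellC. This was the lowest log2 fold change of the 35 members, and the groups were far apart (log2 fold change −2.22 with standard error 0.09, edgeR adjusted p = 3.93e-17). Bbs1, the subunit that binds Arl6, changed by −1.54 and Bbs9 by −1.39 on the log2 scale. Bbs4 had 32.8, 27.5, 28.4 and 33.9 CPM in AdAC direct and 16.7, 16.4, 15.2 and 14.1 CPM in AdAC CellC, with every direct library higher (log2 fold change −0.97 with standard error 0.10, edgeR adjusted p = 5.69e-09). The chaperonin-like genes were split, with Bbs10 at −1.02 and Bbs12 at 0.85, and so were the GTPases. Bbs12 had 5.93, 5.13, 5.41 and 6.04 CPM in AdAC direct and 10.7, 10.9, 8.21 and 10.9 CPM in AdAC CellC, and every cultured library was higher. Arl13b, the ciliary membrane GTPase commonly stained to see cilia, had 39.1, 40.2, 39.1 and 44.9 CPM in AdAC direct and 24.3, 26.5, 26.7 and 23.7 CPM in AdAC CellC, with all direct libraries higher (log2 fold change −0.69 with standard error 0.08, edgeR adjusted p = 3.38e-08), while Arl6 rose by 0.26. With the members, the summed ependymal markers fell in adult culture (11 of 12 called lower, Mcidas called higher), 7 of 8 oligodendrocyte markers were called lower, and the 6 markers of dividing cells were called higher, from 13.04 to 15.4 CPM to 762.1 to 943 CPM in sum. Of the 9 astrocyte markers 8 were called lower as well (median log2 fold change −3.36). The part of these cells in the result was not tested, and culture cannot be told apart from any difference in brain region between these groups.

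In neonatal astrocytes the machinery was higher in culture. Of the 35 members, 31 were higher in neoAC CellC than in neoAC direct and 1 was lower, where 34.4% of all genes tested were higher and 31.3% lower, and the median log2 fold change was 0.85 for the members against 0.04 for all genes. All 13 IFT-B genes, all 6 IFT-A genes, both dynein-2 genes, both chaperonin-like genes and 5 of 6 BBSome genes rose. Ift80, an IFT-B subunit mutated in a skeletal ciliopathy, had 36.99, 32.8, 29.97 and 45.2 CPM in neoAC direct and 106, 118, 115 and 115 CPM in neoAC CellC. The lowest cultured library was above the highest direct one (log2 fold change 1.64 with standard error 0.11, edgeR adjusted p = 2.44e-12). Ift22, a small GTPase of IFT-B, had 38.7, 36.2, 39.6 and 35.8 CPM in neoAC direct and 107, 119, 121 and 101 CPM in neoAC CellC, the cultured libraries again all higher (log2 fold change 1.58 with standard error 0.08, edgeR adjusted p = 1.6e-14). Wdr35 had 41.9, 38.1, 37.8 and 51.3 CPM in neoAC direct and 121, 133, 129 and 123 CPM in neoAC CellC, with no overlap (log2 fold change 1.58 with standard error 0.10, edgeR adjusted p = 6.2e-13).

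The genes given for adult cells were mostly among those that rose. Ift88 had 13.8, 11.3, 11.7 and 15.4 CPM in neoAC direct and 27.8, 29.6, 29.5 and 26.99 CPM in neoAC CellC (log2 fold change 1.13 with standard error 0.10, edgeR adjusted p = 4.08e-10). Wdr19 had 36.5, 33.9, 32.5 and 37.9 CPM in neoAC direct and 52.8, 58.3, 57.1 and 57.9 CPM in neoAC CellC (log2 fold change 0.68 with standard error 0.08, edgeR adjusted p = 7.83e-08). For both, all 4 cultured libraries lay above all 4 direct ones. Ift140 had 75.5, 64.8, 70.1 and 62.2 CPM in neoAC direct and 109, 116, 117 and 98.1 CPM in neoAC CellC, without overlap (log2 fold change 0.69 with standard error 0.08, edgeR adjusted p = 5.2e-08). Dync2h1 had 66.96, 55.5, 54.3 and 78.2 CPM in neoAC direct and 79.9, 86.7, 83.6 and 78.4 CPM in neoAC CellC, where the highest direct library came within 1 CPM of the lowest cultured one (log2 fold change 0.37 with standard error 0.11, edgeR adjusted p = 0.00384). Bbs4 had 19.02, 18.6, 17.2 and 23.2 CPM in neoAC direct and 30.9, 36.6, 35.4 and 33.9 CPM in neoAC CellC, without overlap (log2 fold change 0.81 with standard error 0.10, edgeR adjusted p = 1.98e-07). Kif17 had 4.39, 4.18, 2.79 and 2.06 CPM in neoAC direct and 6.80, 5.92, 6.85 and 4.52 CPM in neoAC CellC, with the lowest cultured library just above the highest direct one (log2 fold change 0.84 with standard error 0.22, edgeR adjusted p = 0.00172).

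The exceptions were Kif3c, Kif3a, Bbs2 and Arl13b. Kif3c, a kinesin-2 subunit abundant in neurons, had 133, 107, 129.8 and 98.1 CPM in neoAC direct and 64.2, 44.7, 45.7 and 49.2 CPM in neoAC CellC. Every cultured library was lower (log2 fold change −1.20 with standard error 0.10, edgeR adjusted p = 2.27e-10), but 35.3% of the exon bases of Kif3c overlap an antisense gene, 1110002L01Rik, and whether counting used the strand is not stated. Kif3a had 96.8, 82.8, 87.6 and 99.1 CPM in neoAC direct and 95.3, 105, 98.95 and 95.1 CPM in neoAC CellC, groups that overlapped (log2 fold change 0.11 with standard error 0.07, edgeR adjusted p = 0.17). Bbs2 had 32.9, 31.3, 28.9 and 34.5 CPM in neoAC direct and 30.6, 36.1, 36.9 and 33.9 CPM in neoAC CellC, also overlapping (log2 fold change 0.11 with standard error 0.09, edgeR adjusted p = 0.277). Arl13b had 25.3, 25.9, 24.1 and 29.4 CPM in neoAC direct and 29.6, 30.7, 28.8 and 26.6 CPM in neoAC CellC, overlapping as well (log2 fold change 0.14 with standard error 0.08, edgeR adjusted p = 0.127), though without replicate 4 of neoAC direct it was called (log2 fold change 0.20, edgeR adjusted p = 0.0332). With the members, all 12 ependymal or multiciliated markers were called higher in neonatal culture (median log2 fold change 2.93), as were the 6 markers of dividing cells, from 282 to 460 CPM to 740 to 982 CPM in sum. Of the 9 astrocyte markers 7 were called lower and 1 higher (median log2 fold change −1.15). The part of ependymal and other cells in the result was not tested.

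**Figure D2:**
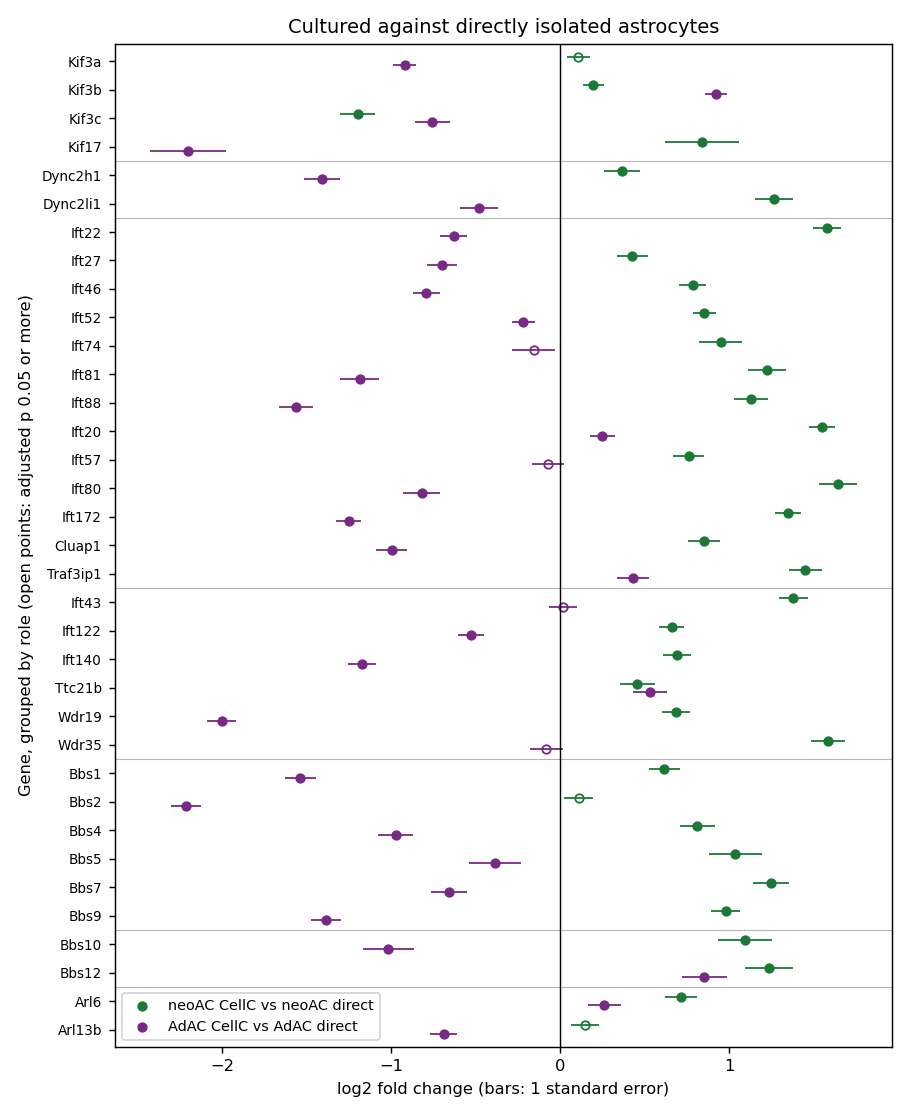
Log2 fold change of each member (rows, grouped by role) in cultured against directly isolated astrocytes, with neonatal cells in green and adult cells in purple, bars of 1 standard error, and open points where the edgeR adjusted p was 0.05 or more. In neonatal cells 31 members lie right of 0 as filled points and 1 left, and in adult cells 25 lie left and 6 right.

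The effect of culture differed between the ages for nearly all members. The difference of the log2 fold changes (adult minus neonatal), tested as an interaction in the same fit, was called below 0 for 31 members and above 0 for 2, where 33.2% of all genes tested were called below 0 and 35.4% above. Its median over the members was −1.66, against 0.05 over all genes. For Kif17 the difference was −3.04 (standard error 0.31, edgeR adjusted p = 4.99e-09). Ift88, at −2.69 (edgeR adjusted p = 1.76e-14), and Wdr19, at −2.69 (edgeR adjusted p = 6.26e-16), were next in size. Dync2h1 (−1.78), Bbs4 (−1.78), Ift140 (−1.86), Kif3a (−1.03) and Arl13b (−0.84) also passed. In all, 21 members rose in neonatal and fell in adult culture, which held for 11.1% of all genes tested (2176 genes). Kif3b, Ift20, Traf3ip1, Ttc21b, Bbs12 and Arl6 rose at both ages, and Kif3c fell at both. Kif3a, Bbs2 and Arl13b fell in adult cells and were not called in neonatal ones, and Ift74, Ift57, Ift43 and Wdr35 rose in neonatal cells and were not called in adult ones. The 2 members called above 0 were Kif3b and Kif3c, while Ttc21b and Bbs12 did not pass (edgeR adjusted p = 0.662 and 0.0867). Dissociation and any difference in tissue region cannot be told apart from age in this difference.

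Directly isolated neonatal cells had less of the machinery than adult ones. In neoAC direct, 31 of 35 members were lower and 1 higher than in AdAC direct, where 36.4% of all genes tested were lower and 35% higher, with a median of −0.71 for the members and 0 for all genes. Ift88 was at 13.05 ± 1.93 CPM in neoAC direct and 51.9 ± 5.11 in AdAC direct (log2 fold change −1.99 with standard error 0.10, edgeR adjusted p = 6.39e-15). Bbs10, which helps assemble the BBSome, had 2.57, 2.38, 2.17 and 2.99 CPM in neoAC direct and 10.04, 7.72, 9.45 and 11.7 CPM in AdAC direct. Each adult library was more than 2 times the highest neonatal one (log2 fold change −1.94 with standard error 0.16, edgeR adjusted p = 4.82e-11). Kif17 was lower as well (log2 fold change −1.77 with standard error 0.22, edgeR adjusted p = 1e-07). Kif3b, the member that was higher, stood at 80.5 ± 2.16 CPM in neoAC direct and 38.8 ± 2.07 in AdAC direct (log2 fold change 1.05 with standard error 0.07, edgeR adjusted p = 2.16e-13). Ift74, Ift57 and Arl6 were not called, with log2 fold changes of 0.02, −0.16 and 0.18. Olfactory bulb and cerebellum had been taken out of the adult tissue, and the neonatal cells came from cerebral tissue, dissociated in another way. The 8 oligodendrocyte markers were all lower in the neonatal cells. Of the 12 ependymal or multiciliated markers 10 were lower and 2 higher (median log2 fold change −2.79), and the 6 markers of dividing cells were all higher (median 4.98). The part of these cells was not tested, and tissue region, dissociation, other cells and age cannot be told apart here.

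After culture the order of the ages was the reverse. In neoAC CellC, 29 of 35 members were higher and 3 lower than in AdAC CellC, where 28.5% of all genes tested were higher and 35.2% lower, with medians of 0.77 and −0.08. Bbs9, a scaffold subunit of the BBSome, had 31.4, 38.1, 37.1 and 36.9 CPM in neoAC CellC and 11.3, 11.9, 9.30 and 11.98 CPM in AdAC CellC. The neonatal libraries were all higher (log2 fold change 1.69 with standard error 0.09, edgeR adjusted p = 2.91e-14). Bbs1 had 65.5, 67.5, 70.4 and 62.4 CPM in neoAC CellC and 22.96, 27.2, 21.6 and 26.1 CPM in AdAC CellC, with the same order (log2 fold change 1.44 with standard error 0.09, edgeR adjusted p = 1.02e-12). Ift22 was 112 ± 9.79 against 41.6 ± 1.60 CPM (log2 fold change 1.43 with standard error 0.08, edgeR adjusted p = 1.58e-13). The 3 members lower in the neonatal cultures were Kif3c (−0.69), Bbs12 (−0.65) and Ttc21b (−0.46). Ttc21b had 14.9, 13.9, 15.3 and 15.5 CPM in neoAC CellC and 20.1, 20.1, 20.3 and 21.6 CPM in AdAC CellC, so each adult culture was higher than every neonatal one. Arl13b, at 0.19 (edgeR adjusted p = 0.0422), was no longer called without replicate 1 (0.19) or 2 (0.17) of neoAC CellC, or replicate 1 (0.18) or 4 (0.17) of AdAC CellC. All 12 ependymal markers (median log2 fold change 2.60) and all 9 astrocyte markers (median 2.60) were higher in the neonatal cultures, and all 8 oligodendrocyte markers were lower (median −6.54). Their part was not tested, and dissociation, any difference in tissue region, other cells and age cannot be told apart here.

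**Figure D3:**
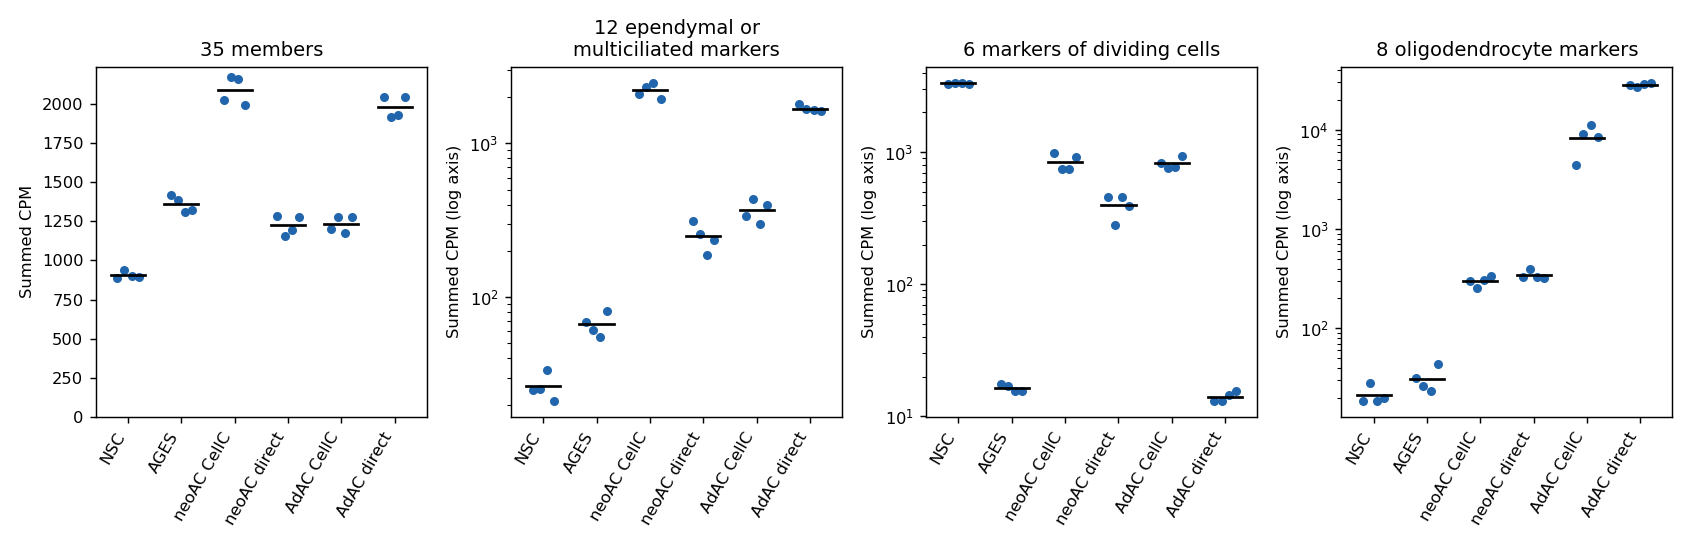
Summed CPM per library (points) and group mean (lines) of the 35 members, on a linear axis from 0, and of the markers of ependymal or multiciliated cells, dividing cells and oligodendrocytes, on log axes. The sums of the members and of the ependymal markers are both highest in neoAC CellC and AdAC direct, and both sums are higher in AGES than in NSCs. The ependymal markers sum to 55.3 to 80.9 CPM in AGES and 21.1 to 33.85 CPM in NSCs. Most of this is 1 marker, Foxj1, with means of 62.9 CPM in AGES and 18.4 CPM in NSCs, against 66.6 and 26.3 CPM for all 12. Of the 12 markers 3 were called higher in AGES than in NSCs, 1 lower, and 8 were not called.

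When NSCs became AGES, most of the machinery rose. Of the 35 members, 26 were higher and 5 lower in AGES than in NSCs, where 31.7% of all genes tested were higher and 34% lower, with medians of 0.66 and 0. The BBSome moved most. Bbs1 (chr19:4886878-4906628) had 6.62, 7.04, 6.72 and 6.32 CPM in NSC and 42.3, 42.7, 30.5 and 36.6 CPM in AGES. Every AGES library was more than 4 times the highest NSC library (log2 fold change 2.51 with standard error 0.10, edgeR adjusted p = 2.52e-17). Bbs2 had 8.05, 10.9, 8.85 and 9.56 CPM in NSC and 34.3, 33.8, 33.5 and 31.2 CPM in AGES, also far apart (log2 fold change 1.83 with standard error 0.09, edgeR adjusted p = 2.54e-15). Bbs4 had 5.51, 5.65, 5.29 and 6.09 CPM in NSC and 19.9, 14.6, 18.1 and 17.05 CPM in AGES, all AGES libraries being higher (log2 fold change 1.63 with standard error 0.11, edgeR adjusted p = 1.43e-12). Bbs7 and Bbs9 changed by 1.29 and 1.13. Bbs5, which binds phosphoinositides, was the BBSome gene that did not pass, with 2.25, 2.25, 2.26 and 2.11 CPM in NSC and 2.26, 2.61, 2.24 and 2.40 CPM in AGES (log2 fold change 0.10 with standard error 0.18, edgeR adjusted p = 0.628).

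The transport complexes rose less evenly. In IFT-A, Ift122 had 25.1, 23.1, 23.7 and 23.9 CPM in NSC and 83.9, 91.3, 76.6 and 75.5 CPM in AGES. The 2 groups were well apart (log2 fold change 1.77 with standard error 0.08, edgeR adjusted p = 2.83e-16). Wdr19 changed by 1.57 and Wdr35 by 1.37. Ift140, of the same core, was lower, with 71.98, 76.6, 77.5 and 75.8 CPM in NSC and 44.3, 41.2, 33.6 and 37.3 CPM in AGES. All AGES libraries lay below all NSC libraries (log2 fold change −0.95 with standard error 0.08, edgeR adjusted p = 1.45e-10). Ttc21b was lower too, with 32.6, 38.6, 34.6 and 35.2 CPM in NSC and 24.4, 21.3, 18.7 and 20.7 CPM in AGES (log2 fold change −0.73 with standard error 0.10, edgeR adjusted p = 5.28e-07). In IFT-B, 11 of 13 genes were higher and none was lower, between 0.20 for Ift46 and 1.38 for Ift22, and Ift88 had 6.49, 6.28, 5.25 and 6.29 CPM in NSC and 8.58, 9.83, 10.1 and 9.94 CPM in AGES (log2 fold change 0.66 with standard error 0.11, edgeR adjusted p = 5.36e-06).

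Among the motors, Dync2li1, the light intermediate chain of dynein-2, rose by 1.63 and Dync2h1, with 32.9, 28.8, 29.7 and 35.7 CPM in NSC and 42.6, 47.8, 36.6 and 36.2 CPM in AGES, by 0.36. Kif3a had 49.1, 59.6, 49.2 and 52.9 CPM in NSC and 90.3, 93.1, 84.7 and 89.8 CPM in AGES, without overlap (log2 fold change 0.76 with standard error 0.07, edgeR adjusted p = 2.53e-10). Kif3b rose by 0.46. Kif17 had 1.34, 1.18, 1.46 and 1.30 CPM in NSC and 0.273, 0.261, 0.256 and 0.757 CPM in AGES. AGES were lower in every library, and replicate 4 stood well above the other 3 (log2 fold change −1.76 with standard error 0.31, edgeR adjusted p = 1.43e-05). Arl13b, with 15.9, 18.2, 16.5 and 16.6 CPM in NSC and 17.1, 15.4, 15.2 and 13.8 CPM in AGES, overlapped and was not called (log2 fold change −0.13 with standard error 0.08, edgeR adjusted p = 0.182), and Arl6 fell by 0.30. The 6 markers of dividing cells summed to 3286 to 3372 CPM in NSCs and 15.4 to 17.4 CPM in AGES, and the part of the cell cycle in the result was not tested. Of the 12 ependymal markers 3 were called higher, Foxj1, Dynlrb2 and Cfap126, 1 lower, Hydin, and 8 were not called. Dynlrb2 and Cfap126 had means below 1 CPM in both groups. Foxj1 made up most of the summed ependymal markers, with means of 62.9 CPM in AGES and 18.4 CPM in NSCs. Over all genes tested, 31.7% were higher and 34% lower.

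Against cultured primary astrocytes AGES had less of most members than neonatal cells, and a mixed pattern against adult cells. In AGES 26 members were lower and 6 higher than in neoAC CellC, where 40.5% of all genes tested were lower and 34.1% higher, with medians of −0.84 and −0.07. Kif17 was the lowest (log2 fold change −3.95 with standard error 0.28, edgeR adjusted p = 2.36e-12). Bbs5 stood at 2.38 ± 0.169 CPM in AGES and had 11.2, 13.1, 11.5 and 11.7 CPM in neoAC CellC, several times the level of any AGES library (log2 fold change −2.32 with standard error 0.17, edgeR adjusted p = 2.61e-12). Ift74, whose partner is Ift81, had 23.02, 19.7, 19.03 and 23.3 CPM in AGES and 60.2, 72.98, 63.4 and 64.5 CPM in neoAC CellC, without overlap (log2 fold change −1.62 with standard error 0.13, edgeR adjusted p = 2.61e-11). Ift88 (−1.56), Ift140 (−1.49), Dync2h1 (−1.01), Bbs4 (−0.97) and Arl13b (−0.91) were lower as well. The members higher in AGES were Bbs12 (1.76), Bbs10 (0.67), Kif3c (0.59), Ttc21b (0.51), Bbs7 (0.35) and Ift52 (0.23). With scaling by library size only Ttc21b was no longer called (log2 fold change 0.21, edgeR adjusted p = 0.0797). Bbs12 had 22.9, 22.8, 22.7 and 19.4 CPM in AGES and 6.90, 6.94, 5.18 and 6.93 CPM in neoAC CellC, every AGES library being far higher (log2 fold change 1.76 with standard error 0.13, edgeR adjusted p = 8.27e-12). All 12 ependymal markers were lower in AGES than in neoAC CellC (median log2 fold change −8.30), and their part was not tested.

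Against AdAC CellC, 15 members were higher in AGES and 11 lower, where 31% of all genes tested were higher and 45.2% lower. The medians were 0.16 for the members and −0.23 for all genes, so the members lay above the shift of the whole transcriptome. With scaling by library size only, 10 members were called higher and 14 lower, and the medians were −0.07 and −0.445. Of the 6 BBSome genes 4 were higher in AGES, and so were both chaperonin-like genes. Bbs7 had 58.6, 58.2, 57.2 and 49.8 CPM in AGES and 19.8, 20.6, 17.9 and 21.2 CPM in AdAC CellC. All AGES libraries were more than 2 times the adult cultures (log2 fold change 1.49 with standard error 0.11, edgeR adjusted p = 2.24e-12). Bbs9 had 27.8, 26.4, 26.4 and 27.8 CPM in AGES, against 11.1 ± 1.25 CPM in AdAC CellC (log2 fold change 1.29 with standard error 0.09, edgeR adjusted p = 1.06e-12), and Bbs12 and Bbs10 were higher by 1.11 and 0.83. Kif17 (−2.68) and Bbs5 (−1.78) were lower, as against neonatal cells. Traf3ip1, an IFT-B subunit that binds microtubules, had 22.003, 20.6, 23.5 and 27.1 CPM in AGES and 49.3, 52.5, 45.5 and 50.1 CPM in AdAC CellC, and AGES were all lower (log2 fold change −1.08 with standard error 0.10, edgeR adjusted p = 1.64e-10). Kif3a was higher in AGES (0.53), Ift88 (−0.87) and Arl13b (−0.72) were lower, and Dync2h1 (0.18) and Bbs4 (0.16) were not called. With no filter on low counts both were called higher (0.30 and 0.28), as they were with only the groups compared (0.28 and 0.26). The comparisons of AGES with the cultures and with NSCs share the AGES libraries. All 12 ependymal and all 8 oligodendrocyte markers were below the cultured adult cells in AGES, and their part was not tested.

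**Figure D4:**
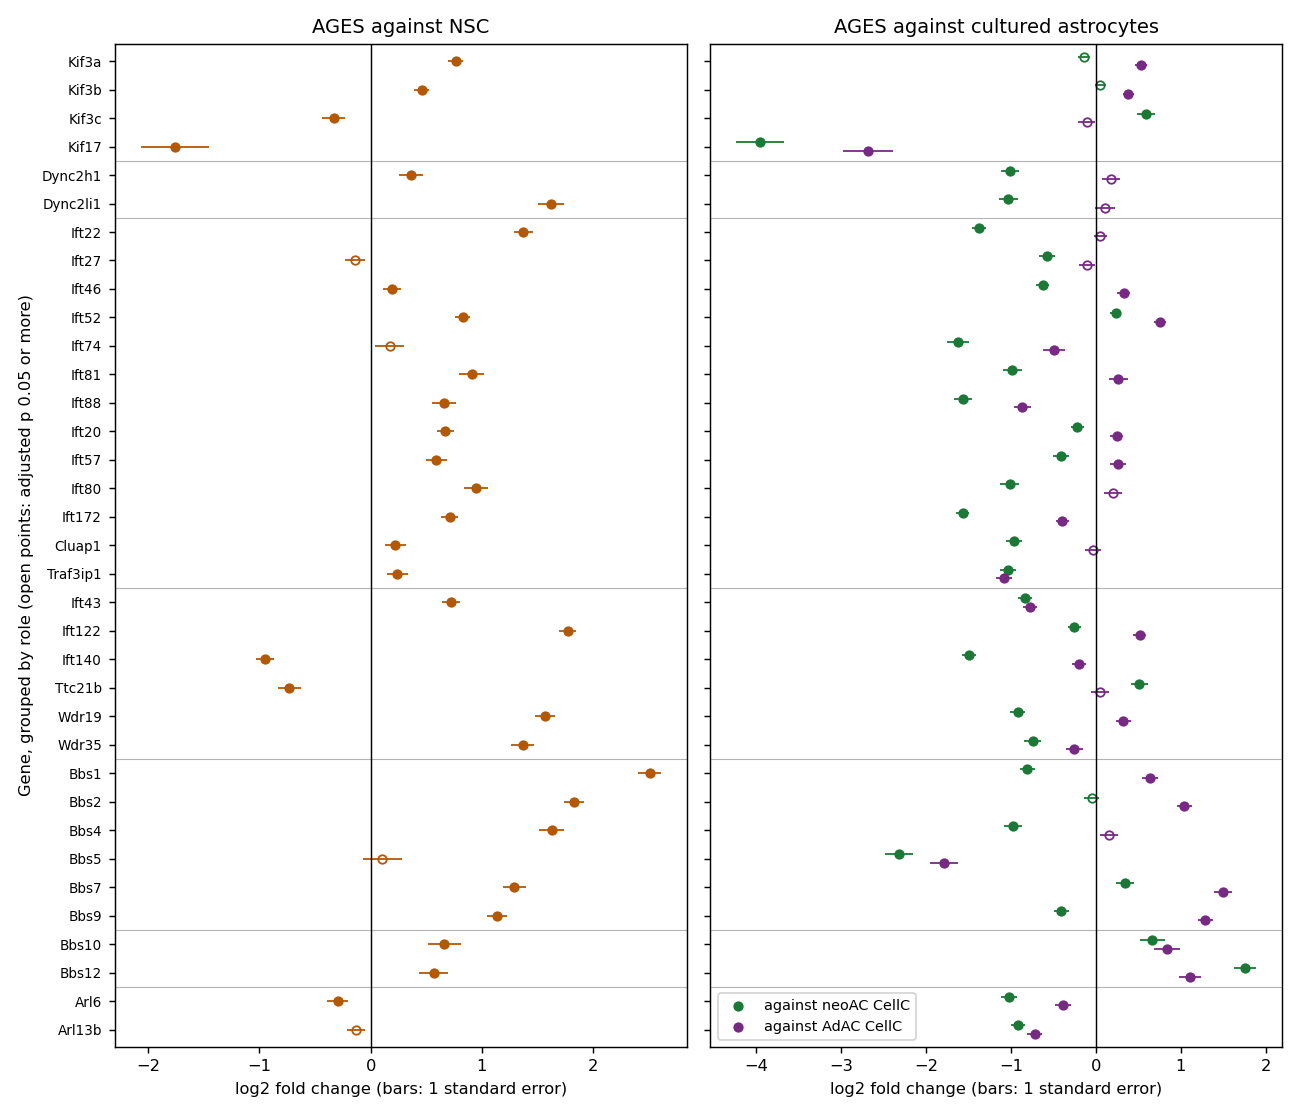
Log2 fold change of each member (rows, grouped by role) in AGES against NSCs (left, orange) and against neoAC CellC (right, green) and AdAC CellC (right, purple), with bars of 1 standard error and open points where the edgeR adjusted p was 0.05 or more. Bbs1 lies highest on the left at 2.51, and Kif17 lowest on the right at −3.95 and −2.68.

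Genes that work beside the members were described from lists, whose counts stand against the shares of all genes called: 39.2% lower and 38.8% higher in adult culture, 34.4% higher and 31.3% lower in neonatal culture, and 31.7% higher and 34% lower in AGES against NSCs. Of 14 other subunits and partners of the transport machinery, 9 fell and 2 rose in adult culture (median −0.73), and 12 rose and 1 fell in neonatal culture (median 0.80). Rabl2, a GTPase that starts IFT-B trains, was lowest in adult culture (log2 fold change −2.08 with standard error 0.11, edgeR adjusted p = 9.6e-15), and Ttc30b, an IFT-B subunit, was highest in neonatal culture (log2 fold change 2.11 with standard error 0.13, edgeR adjusted p = 2.55e-13), though it has close relatives (Ttc30a1 and Ttc30a2) that may share reads with it. In AGES against NSCs 7 were higher and 2 lower. Of 22 genes of the transition zone, the gate at the base of the cilium, 17 fell and none rose in adult culture (median −0.81), and 19 rose and 1 fell in neonatal culture (median 0.83). Tmem107 rose most in neonatal culture (log2 fold change 2.45 with standard error 0.14, edgeR adjusted p = 6.01e-14). In AGES against NSCs this list was split, with 9 higher and 7 lower. Of 12 basal body and distal appendage genes, 9 fell and none rose in adult culture, 7 rose and 2 fell in neonatal culture, and 11 were lower in AGES than in NSCs (median −1.05). Ccp110, a protein that caps the centriole and must leave before a cilium grows, was lowest among them in AGES against NSCs (log2 fold change −1.35 with standard error 0.11, edgeR adjusted p = 3.05e-11) and in adult culture (log2 fold change −2.96 with standard error 0.11, edgeR adjusted p = 8.67e-18), and Ttbk2, the kinase that triggers its removal, was the 1 gene higher in AGES (log2 fold change 0.74 with standard error 0.11, edgeR adjusted p = 1.3e-06). Of 18 genes of ciliary membrane traffic and signalling, 5 rose and 7 fell in adult culture and 3 rose and 9 fell in neonatal culture, so that in adult culture neither share was above that of all genes. Between AGES and NSCs, 11 of the 18 were higher in AGES and 3 lower (median 0.35). Gpr161, a ciliary receptor that holds Hedgehog signalling off, rose in adult culture (log2 fold change 1.61 with standard error 0.11, edgeR adjusted p = 6.26e-13) and fell in neonatal culture (log2 fold change −1.42 with standard error 0.10, edgeR adjusted p = 4.51e-12).

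RFX factors and FOXJ1 are known to switch on ciliary genes, and RFX proteins bind the X-box, a pair of inverted sites. Of 9 such regulators, 7 fell and 2 rose in adult culture, 5 rose and 3 fell in neonatal culture, and 4 were higher and 3 lower in AGES than in NSCs, where 31.7% of all genes were higher and 34% lower. Over all genes tested, 39.2% fell and 38.8% rose in adult culture, and 34.4% rose and 31.3% fell in neonatal culture. Rfx2 was at 8.50 ± 0.811 CPM in NSCs and 52.98 ± 1.67 in AGES (log2 fold change 2.64 with standard error 0.12, edgeR adjusted p = 3.68e-16), 22.1 ± 3.36 in neoAC direct and 71.3 ± 4.91 in neoAC CellC (log2 fold change 1.69 with standard error 0.11, edgeR adjusted p = 1.59e-12), and 53.6 ± 4.89 in AdAC direct and 19.3 ± 3.34 in AdAC CellC (log2 fold change −1.48 with standard error 0.11, edgeR adjusted p = 8.93e-12). Foxj1 and Mcidas are also on the ependymal list. Foxj1 was at 1241 ± 121 CPM in neoAC CellC, 416 ± 20.004 in AdAC direct, 209 ± 36.4 in AdAC CellC, 115 ± 23.3 in neoAC direct, 62.9 ± 10.6 in AGES and 18.4 ± 3.65 in NSCs. Rfx4 fell in both cultures, with log2 fold changes of −2.33 in adult and −0.88 in neonatal cells. Rfx7 moved opposite to Rfx2 in 2 comparisons. It rose in adult culture (log2 fold change 0.38 with standard error 0.10, edgeR adjusted p = 0.000748). In AGES it was lower than in NSCs (log2 fold change −1.08 with standard error 0.09, edgeR adjusted p = 1.62e-10). Gmnc, which starts the multiciliated programme, rose most of the list in neonatal culture (log2 fold change 4.58 with standard error 0.32, edgeR adjusted p = 3.42e-12).

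Because so many members moved together, the 250 bases before the RefSeq start (GRCm38.p6) were searched for the X-box on both strands. RefSeq promoters were found for 31 of the 35 members. The single site GTTGCC was in 9 of them (29%), namely Arl13b, Bbs7, Ift140, Ift27, Ift57, Kif17, Kif3a, Kif3c and Traf3ip1, and in 11.8% of the promoters of 27025 genes. The paired site, GTTNCC and GGNAAC with 0 to 3 bases between them, was in 2 members, Bbs7 and Ift57, and in 0.788% of all genes. The longer single site GTTGCCA was in 2 members against 4.19%, and another, degenerate spelling of the X-box, which does not take in every match of the first pair, in 3 (Ift46, Ift57 and Traf3ip1) against 4.39%. These matches are a description of the letters and were not tested. Below are the stretches before the start of 4 of the members with the single site, with a paired site in Bbs7 and Ift57, and of Ift88, which has no single site and differed between the ages in its response to culture like Kif17. They are printed 5′ to 3′ on the strand of the gene, with GTTGCC and its reverse complement in capitals, and end where more than 30 bases of an annotated exon would be shown. Kif17 is chr4:138262001-138262250 (forward), where the RefSeq start lies inside the gene's longer Gencode model, Bbs7 is chr3:36613448-36613639 (reverse), Ift57 is chr16:49699044-49699262 (forward), Traf3ip1 is chr1:91494418-91494667 (forward) and Ift88 is chr14:57423821-57424070 (forward).
Kif17: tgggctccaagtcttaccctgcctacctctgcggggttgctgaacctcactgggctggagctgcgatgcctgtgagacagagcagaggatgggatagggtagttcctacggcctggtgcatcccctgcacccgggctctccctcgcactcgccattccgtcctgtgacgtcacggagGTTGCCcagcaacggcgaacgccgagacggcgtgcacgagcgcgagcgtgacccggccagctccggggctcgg
Bbs7: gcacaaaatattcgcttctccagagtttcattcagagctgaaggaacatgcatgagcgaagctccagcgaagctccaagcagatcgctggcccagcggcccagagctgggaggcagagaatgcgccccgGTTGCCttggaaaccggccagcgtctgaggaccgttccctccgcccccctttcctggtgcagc
Ift57: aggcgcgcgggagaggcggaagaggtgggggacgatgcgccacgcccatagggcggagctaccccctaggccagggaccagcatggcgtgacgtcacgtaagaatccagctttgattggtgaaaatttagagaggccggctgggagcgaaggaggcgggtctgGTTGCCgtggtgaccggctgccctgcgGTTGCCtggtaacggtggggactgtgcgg
Traf3ip1: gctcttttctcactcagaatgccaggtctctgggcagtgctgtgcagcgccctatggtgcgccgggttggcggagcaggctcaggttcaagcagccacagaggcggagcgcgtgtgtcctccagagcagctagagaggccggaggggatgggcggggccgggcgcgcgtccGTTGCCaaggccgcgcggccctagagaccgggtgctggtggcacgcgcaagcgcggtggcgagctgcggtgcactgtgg
Ift88: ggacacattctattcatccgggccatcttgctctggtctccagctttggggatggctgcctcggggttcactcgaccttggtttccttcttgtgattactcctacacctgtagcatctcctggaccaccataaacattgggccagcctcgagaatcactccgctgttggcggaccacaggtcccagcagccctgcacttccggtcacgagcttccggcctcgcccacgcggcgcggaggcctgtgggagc
Members with the single site did not share 1 pattern, and their calls were not compared with those of members without it. In neonatal culture Kif17, Bbs7, Ift57, Ift140, Ift27 and Traf3ip1 rose, Kif3c fell, and Kif3a and Arl13b were not called. In adult culture Kif17, Bbs7, Ift140, Ift27, Kif3a, Kif3c and Arl13b fell, Traf3ip1 rose and Ift57 was not called.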

How the data were processed

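The authors prepared stranded mRNA libraries, sequenced them in paired-end mode, aligned them to GRCm38 with STAR 2.7.3a and counted exons per gene with featureCounts and Gencode vM12. What they deposited is this table of raw counts, not normalized. Whether counting used the strand or pairs is not stated, so genes that overlap others (Kif3c; Cluap1, 22.4% of whose exon bases lie in Gm20695) are uncertain. Positions are those of Gencode vM21, which holds 49412 of the 49671 genes (99.48%). Groups were taken from the sample titles. Genes kept by filterByExpr were scaled by TMM and fitted with edgeR 4.0.16 in R 4.3.3, in 1 fit of the 6 groups, two-sided, with Benjamini-Hochberg adjustment; a standard error is the absolute log2 fold change over the square root of F. The scripts were tested on simulated data. Replicates of a group differed by more than sampling noise (chi-square per gene 5.56 to 62.3). The members, the gene lists and the tests were chosen with earlier results of these data known. Members with values per library are Ift88, Ift140, Kif3a, Kif17, Dync2h1, Bbs4 and Arl13b, and in each comparison the 3 highest and 3 lowest called members without overlap that reached 1 CPM in either group, and the 3 with the largest interaction; from the pathway lists, genes at either end of the ranking by the same criteria were named, and other genes were chosen after their values were seen. The values of 1 gene of these lists are not reported here. Alternatives were DESeq2 size factors, library size only, no filter, a minimum of 10 counts per library, the Wald test of DESeq2 1.42.0, a log2 fold change beyond 1, only the groups compared, a replicate block, and leaving out each replicate. X-box motifs were searched in RefSeq promoters of GRCm38.p6.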

Additional observations from a re-analysis of the deposited data

Results flagged for a closer look

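Single libraries stood apart from the other 3 of their group in 9 of 156 groups of 4 examined (by Dixon's ratio), which cover 24 members, the sum of all members and the sum of the ependymal markers in each group, where chance flags about 1 in 20. Bbs12 was low in AGES replicate 4 (19.39 CPM), in neoAC CellC replicate 3 (5.183 CPM) and in AdAC CellC replicate 3 (8.208 CPM). AGES replicate 4 was also high for Kif17 (0.757 CPM) and low for Bbs7 (49.83 CPM). AdAC CellC replicate 3 was low for Ift74 (25.55 CPM) and replicate 4 high for Ttc21b (21.56 CPM). In NSCs, replicate 4 was low for Bbs5 (2.107 CPM) and replicate 3 for Ift88 (5.254 CPM).

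The effect of culture differed between adult and neonatal astrocytes for 33 of the 35 members by the interaction test of edgeR. The difference was called below 0 for 31 and above 0 for 2, against 33.2% and 35.4% of all genes tested. As adult minus neonatal log2 fold change, it was −3.041 for Kif17, −2.691 for Ift88, −2.687 for Wdr19, −1.863 for Ift140, −1.784 for Bbs4, −1.777 for Dync2h1, −1.027 for Kif3a and −0.8353 for Arl13b. Ependymal markers moved in the same directions as most members at both ages, and their part in these differences was not tested.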

How the results depend on the processing

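The number of members called stayed within 1.5 times the value reported in all 8 tests and every alternative but 1. With an absolute log2 fold change over 1 as well, 11 members were called for AdAC CellC against AdAC direct, 15 for neoAC CellC against neoAC direct, 11 for AGES against NSCs, 7 for AGES against AdAC CellC, 13 for AGES against neoAC CellC, 15 for neoAC CellC against AdAC CellC and 13 for neoAC direct against AdAC direct, a stricter criterion by construction. Leaving out 1 replicate gave 30 to 31 members called in adult culture, 32 to 33 in neonatal culture, 28 to 30 in AGES against NSCs and 33 to 34 for the interaction. Scaling by library size only moved the median of all genes from −0.23 to −0.445 for AGES against AdAC CellC, from 0.04 to 0.271 for neoAC CellC against neoAC direct and from −0.07 to −0.373 for AGES against neoAC CellC. Under it the members' median in AGES against AdAC CellC turned from 0.16 to −0.0662, and Dync2h1 (−0.03965) and Bbs4 (−0.0662) turned too, without a call. Both were called higher there with no filter (Dync2h1 0.2991, Bbs4 0.2781) and with only the groups compared (0.2797 and 0.2574), and Dync2h1 also with the replicate block (0.2715). Of the named members' values, 1343 alternatives kept direction and call, 14 lost the call, 17 gained one and 2 turned. Kif3a in neoAC CellC against neoAC direct was called higher under library size only (0.34) and under a minimum of 10 counts per library (0.21), as was Arl13b (0.37 and 0.25), and Kif3a in AGES against neoAC CellC was called lower in 6 settings. Ift140 in AGES against AdAC CellC, called at −0.20, lost the call in 9 settings, among them without AGES replicate 3 (−0.14) or 4 (−0.18) and without AdAC CellC replicate 2 (−0.17) or 4 (−0.16). Ttc21b in AGES against neoAC CellC lost its call under library size only (0.2099). The cause was not tested. Replicate numbers did not pair the samples: 1 of 28 correlations of same-numbered samples' deviations was above 0.1 (−0.0953 to 0.106), and with the replicate block 31 members were called in adult culture, 31 in neonatal culture, 30 in AGES against NSCs and 33 for the interaction.

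Of 128 alternative values of the members' median log2 fold change, 38 moved by more than the spread between replicates (1 SD of the members' mean log2 CPM within groups, 0.0634), and the sign changed for AGES against AdAC CellC under library size only (given above) and in no other alternative. With DESeq2 size factors and with the DESeq2 Wald test the median was −0.7827 and −0.7826 in adult culture, 0.7506 and 0.7519 in AGES against NSCs, −0.9037 and −0.9039 in AGES against neoAC CellC, 0.8755 and 0.8756 in neoAC CellC against AdAC CellC, and −1.76 in both for the interaction. With library size only it was −0.6219 in adult culture, 1.079 in neonatal culture, 0.5884 in AGES against NSCs, −1.143 in AGES against neoAC CellC, 0.8524 in neoAC CellC against AdAC CellC, −0.784 in neoAC direct against AdAC direct and −1.811 for the interaction. With no filter it was −0.7986 in adult culture, 0.7434 in AGES against NSCs, 0.2781 in AGES against AdAC CellC and 0.8504 in neoAC CellC against AdAC CellC. With at least 10 counts in every library, a set of fewer members, it was 0.9574 in neonatal culture, 0.777 in AGES against NSCs, 0.06528 in AGES against AdAC CellC, −1.025 in AGES against neoAC CellC, 0.8363 in neoAC CellC against AdAC CellC and −1.754 for the interaction. With only the groups compared, without and with the replicate block, it was 0.7581 and 0.7585 in AGES against NSCs, 0.2574 and 0.2533 in AGES against AdAC CellC, and 0.8639 and 0.8643 in neoAC CellC against AdAC CellC. Leaving out 1 replicate gave 0.08553 to 0.1867 in AGES against AdAC CellC, with 0.08553 without AGES replicate 1 and 0.09061 without AGES replicate 2, and −1.762 to −1.597 for the interaction. The causes were not tested.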
